A study of Homo sapiens with 2 samples.

Results

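ATF4 and 9 genes of amino acid supply and stress that it is known to control were compared between 2 cultures of CL1-0, an established human lung adenocarcinoma line. The genes were ATF4, ASNS, TRIB3, CHAC1, PHGDH, PSAT1, PSPH, DDIT4, SLC7A5 and SLC3A2, which are 10 of the 19775 genes named on the array. They were selected on the differences that the same 2 arrays had given earlier, in which genes of this pathway lay mostly on the lower side in the FDFT1 culture. The differences below therefore describe the genes and test nothing. Their 15 probe sets were those whose annotation lists the gene alone, and each is given separately. The first culture expressed FDFT1 from a vector and the control held the control vector; both were stably transduced, selected with puromycin and grown at 37 °C in 5% CO2. FDFT1 encodes squalene synthase, the enzyme that commits the mevalonate pathway to sterols. RNA of each culture was hybridised to 1 Affymetrix array, so replicates and p-values are lacking, and differences between cultures cannot be told apart from differences due to the vector.

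ATF4 is a basic leucine zipper transcription factor whose translation is favoured when kinases that sense amino acid shortage, unfolded protein, viral RNA or haem shortage phosphorylate the initiation factor eIF2alpha. It pairs with C/EBP proteins and binds C/EBP-ATF response elements in genes for amino acid synthesis and transport. Because much of its control lies in translation, the level of its mRNA need not follow the level of the protein, which the arrays did not measure. In many lung tumours the pathway is known for driving serine synthesis from a glycolytic intermediate.

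The 2 arrays were close. Over 14133 probe sets that reached a signal of 99.4 (the 75th percentile of all signals) on at least 1 array, log2 signals correlated across probe sets with a Pearson r of 0.989. The 3′ to 5′ ratio of the GAPDH controls was 0.959 without and 1.01 with FDFT1, and that of ACTB 1.16 and 1.15. The FDFT1 transcript was not analysed here, which leaves its overexpression unchecked. The labels give a type II alveolar origin, and the defining markers were mostly dim. Of 9 alveolar type II markers with a probe set, 6 reached the floor (a signal of 12.2) and 1, ETV5, reached 99.4. None of 5 general epithelial markers reached 99.4, with KRT18 at 20.1 and 12.1 and CDH1 at 10.8 and 8.13 on the control and FDFT1 arrays. Markers of other cells were dim as well: summed signals of fibroblast, leukocyte and endothelial markers were 101, 27.1 and 28.5 on the control array and 119, 34.5 and 25.8 on the FDFT1 array, with none of these markers at 99.4. Their part in the results was not tested.

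Most of the ATF4 genes had a somewhat lower signal in the FDFT1 culture, and the differences were small. As deposited, 13 of the 14 probe sets above the floor were lower on the FDFT1 array. Over all measured probe sets with 1 listed gene, 65.4% were lower as deposited, so the array as a whole was shifted. After centring, which removed the median log2 difference of probe sets at or above the floor on both arrays (-0.11, FDFT1 minus control), 11 of 14 were below 0 and 3 above, with a median of -0.15. CHAC1, DDIT4, SLC7A5 and PHGDH were the lowest genes, at -0.33 to -0.26. PSPH on 1 of its probe sets was the highest, at 0.33. No member probe set differed by 1.5-fold or more, a size that 4.53% of all reached on the lower side and 5.21% on the higher side. In what follows, signals are as deposited, and differences are log2 FDFT1 minus control after centring. The error beside a difference is that of a single probe set, estimated from the disagreement of 2 probe sets of a gene at that signal, and leaves out variation between cultures.

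**Figure D1:**
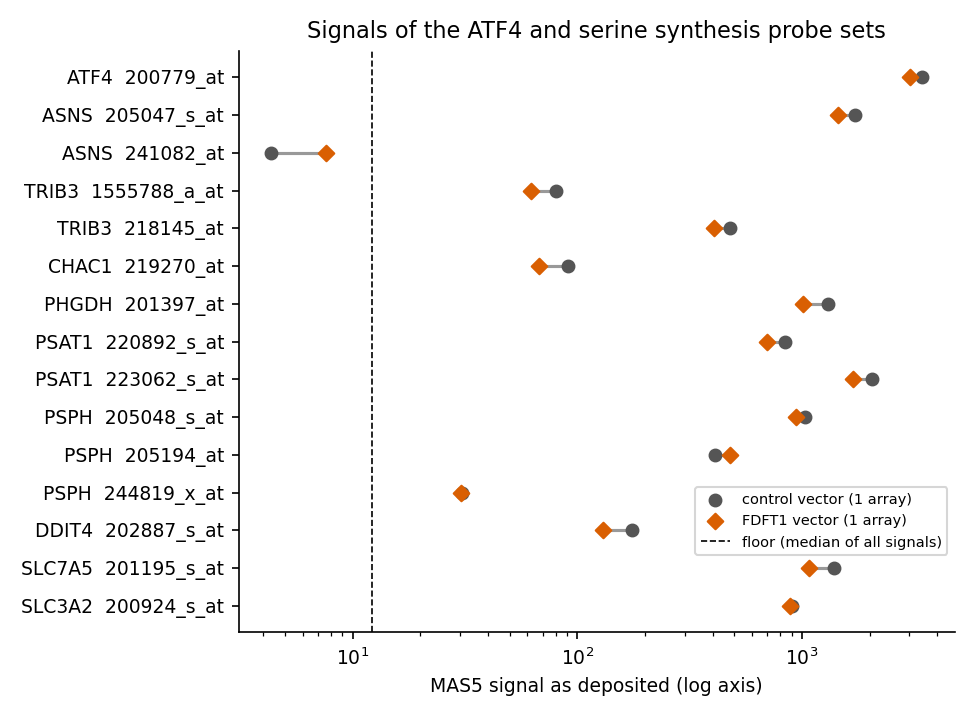
MAS5 signal as deposited (log axis) of each of the 15 probe sets on the control array (grey circles) and the FDFT1 array (orange diamonds), with the floor at 12.2 as a dashed line. The diamond lies to the left of the circle for 13 of the 14 probe sets above the floor; PSPH 205194_at is the exception, and ASNS 241082_at lies under the floor on both arrays.

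ATF4 itself, read by 1 probe set, had a signal of 3427 with the control vector and 3024 with FDFT1, which is 11.7% lower as deposited. The centred difference was -0.07 with an error of 0.10. The transcript of the factor was thus bright on both arrays, and its difference was within the error of a probe set.

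ASNS, asparagine synthetase, makes asparagine from aspartate and glutamine and is among the best studied ATF4 targets. Its main probe set gave 1723 with the control vector and 1443 with FDFT1. The difference was -0.15 with an error of 0.16, so it did not exceed the error. The second ASNS probe set, 241082_at, lay under the floor on both arrays (4.34 and 7.62) and has no usable difference.

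TRIB3 is a pseudokinase that ATF4 induces and that dampens ATF4 and AKT signalling. Probe set 218145_at gave 479 with the control vector and 408 with FDFT1, and the dimmer 1555788_a_at gave 80.4 and 62.4. Both were lower, at -0.13 (error 0.22) and -0.26 (error 0.31). Neither difference exceeded its error, and they differed from each other by 0.13 against a joint error of 0.38.

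CHAC1 degrades glutathione and is induced downstream of ATF4 when amino acids run short. Its 1 probe set gave 91.0 with the control vector and 67.5 with FDFT1, the largest drop among the members as deposited, 25.9%. The difference of -0.33 was close to its error of 0.31, since the probe set was dim.

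DDIT4, also known as REDD1, restrains the growth kinase complex mTORC1 through the TSC proteins and answers to hypoxia and glucocorticoids as well as to ATF4. Its probe set gave 175 with the control vector and 130 with FDFT1, 25.7% lower as deposited. The difference was -0.32 with an error of 0.22. CHAC1 and DDIT4 were the only member genes besides SLC7A5 to reach 1.2-fold lower (0.26 on the log2 scale), at 1.25-fold each.

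The members were chosen as genes that ATF4 is known to control, so promoter matches in them are no independent support. What was searched is the C/EBP-ATF response element. Its core, searched as TGATGNAA (N is any base) on both strands of RefSeq promoter windows of GRCh38.p14 from 250 bases before to 50 bases after each gene start, was present in 3 of the 9 members with a window, namely ASNS, CHAC1 and SLC3A2. PSPH had no window. Of the 15 windows of the 9 members 3 held a match, against 3.62% of all 35116 windows. Of all 27305 genes with a window 4.46% had a match in at least 1. The stretches around the 3 matches are shown because they hold the letters that ATF4 and its partners are known to bind; each is written 5′ to 3′ on the strand of the gene, with the match in capitals. The ASNS stretch is chr7:97872429-97872516, minus strand. Its match lies 68 to 61 bases before the start of 1 of the annotated ASNS windows, and the other ASNS window held no match. The CHAC1 stretch is chr15:40953222-40953309, plus strand, with the match on the opposite strand 209 to 202 bases before the start. The SLC3A2 stretch is chr11:62881725-62881748, plus strand, with the match on the opposite strand 38 to 45 bases after the start of 1 of its 3 annotated windows.
ASNS: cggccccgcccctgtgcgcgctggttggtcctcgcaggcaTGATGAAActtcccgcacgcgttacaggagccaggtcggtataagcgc
CHAC1: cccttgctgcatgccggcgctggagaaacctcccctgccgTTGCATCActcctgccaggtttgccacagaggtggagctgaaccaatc
SLC3A2: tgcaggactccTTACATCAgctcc

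The 3 members with the core did not lie together. CHAC1 was at -0.33, ASNS at -0.15 and SLC3A2 at 0.08, which spans the whole range of the members on the brightest probe set of each gene. Across the array, the 289 measured genes with a match had a median difference of 0.01, with 48.1% below 0, against -0.01 and 51.0% for all 10503 measured genes with a window. Of 10 genes outside the members but in the pathway lists described later that held the core, 7 were below 0 and 3 above. Their median was -0.08. The lowest were TSC2 at -0.32 (error 0.31) and SLC1A5 at -0.31 (error 0.22). The highest were MTHFD1L at 0.18 (error 0.51) and PPP1R15B at 0.15 (error 0.16). TSC2, SLC1A5, MTHFD1L and PPP1R15B were named here after their values were seen. A match is a run of letters in this window only. The windows of the members ranged from 52.7% G and C (PHGDH) to 80.3% (SLC7A5), around a median of 58.7% over all windows.

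PHGDH, PSAT1 and PSPH carry out the steps of serine synthesis in that order, and their probe sets did not behave alike. PHGDH oxidises the glycolytic intermediate 3-phosphoglycerate, the entry to the pathway. Its probe set gave 1301 with the control vector and 1013 with FDFT1, and the difference of -0.26 exceeded its error of 0.16. It fell just short of 1.2-fold lower, at 1.19-fold. A second probe set, 212995_x_at, lists PHGDH together with MZT2A and MZT2B and so cannot be read as PHGDH; it lay at -0.10 (1575 and 1364).

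PSAT1, the aminotransferase of the next step, was lower by nearly the same amount on both of its probe sets. Probe set 223062_s_at gave 2043 with the control vector and 1682 with FDFT1, and 220892_s_at gave 837 and 699. The differences were -0.17 and -0.16, each with an error of 0.16, and they lay 0.02 apart.

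PSPH, the phosphatase that releases serine, had probe sets on both sides of 0. Probe set 205048_s_at gave 1026 with the control vector and 944 with FDFT1, a difference of -0.01 (error 0.16). Probe set 205194_at gave 408 and 476, a difference of 0.33 (error 0.22), and was the only measured member probe set with a higher deposited signal in the FDFT1 culture. The third, 244819_x_at, was dim, at 30.7 and 30.3, with a difference of 0.09 (error 0.51) that turned to -0.02 without centring. The first and second of these lay 0.34 apart against a joint error of 0.27, a gap that centring cannot alter. That gap is little larger than the error, so whether the probe sets truly differ is not settled. PSPH is therefore given no direction here. PSPH has a near-identical pseudogene, PSPHP1, and whether each probe set reads PSPH alone was not tested.

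SLC7A5 and SLC3A2 are the light and heavy chains of a heterodimer that exchanges glutamine for leucine and other large neutral amino acids. The SLC7A5 probe set gave 1392 with the control vector and 1072 with FDFT1, 23.0% lower as deposited. The difference was -0.27 with an error of 0.16, the member furthest beyond its error. The SLC3A2 probe set gave 905 and 886, and its centred difference was 0.08 with an error of 0.16, or -0.03 without centring. The partners lay 0.35 apart against a joint error of 0.23, again independent of centring.

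**Figure D2:**
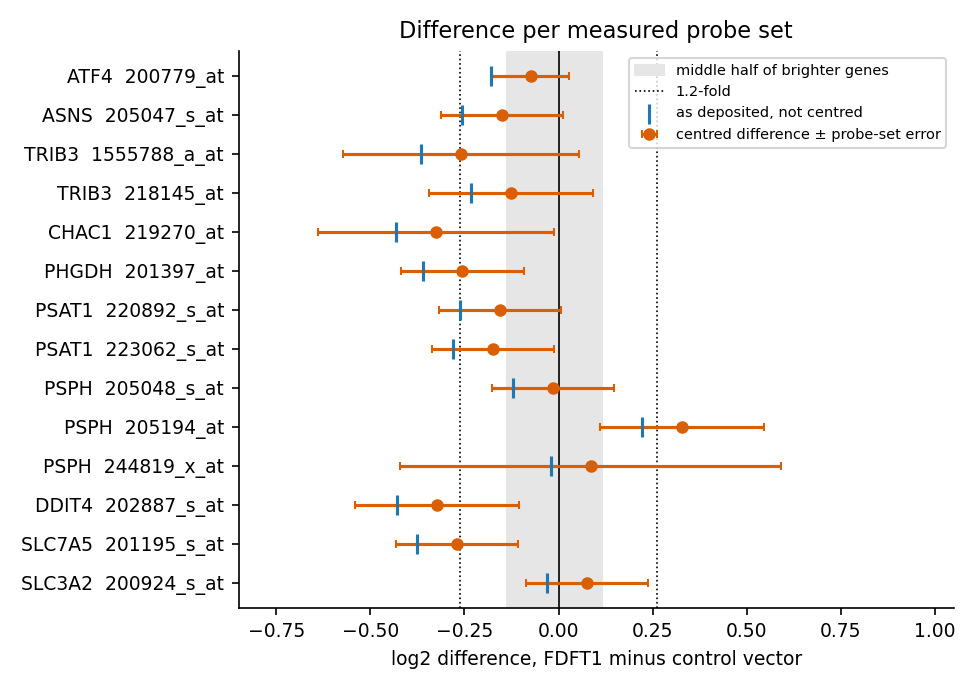
Centred log2 difference, FDFT1 minus control, of each of the 14 measured probe sets (orange points) with the probe-set error as bars; blue ticks mark the same difference without centring, the grey band spans the 25th to 75th percentile of genes with a signal of at least 99.4, and dotted lines mark 1.2-fold. PHGDH, DDIT4 and SLC7A5 lie lower than 0 by more than their error, CHAC1 and the brighter PSAT1 probe set barely so, and PSPH 205194_at lies higher.

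Set beside all probe sets, the members' differences were small, and dim probe sets, which spread more, widen that background. Of the 12591 with 1 listed gene and a signal of at least 99.4, 1439 were at least 1.2-fold lower and 1385 higher. At 1.5-fold these counts were 132 and 188. Of the 14 measured member probe sets 5 were lower by more than 1 probe-set error, against 16.3% of all 24609 measured probe sets with 1 listed gene, and 1 was higher by more than 1, against 16.8%. None passed 2 errors in either direction, against 7% of all. Of the 14, 11 were below 0, against 50.7% of all. At least 1.2-fold lower were 3, against 17.8%, and at least 1.2-fold higher was 1, against 18.9%. Without centring 6 of the 14 were at least 1.2-fold lower and 0 higher, against 27.2% and 12.3% of all. No member reached 2-fold, which 0.805% of all probe sets did on the lower side and 0.87% on the higher side. These shares are given for scale only, since the same differences chose the genes.

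By gene, with the brightest probe set standing for each, 9 of 10 members were below 0, against 50.8% of all 12957 measured genes, and the median was -0.16, against -0.0048. PSPH, given no direction above, counts as below 0 here through 205048_s_at, at -0.01 with an error of 0.16. Its probe set 205194_at, at 0.33, does not enter the counts by brightest probe set. At least 1.2-fold lower were 3 members, against 15.7% of all genes (5 without centring, against 25.6%), at least 1.5-fold lower none, against 3.44%, and at least 1.2-fold higher none, against 16.4%. Of the 9 members with a signal of at least 99.4, 8 were below 0, against 51.6% of the 8075 genes as bright, and 2 were at least 1.2-fold lower, against 10.7%. When the measured probe sets of a gene were averaged, 8 of 10 were below 0, because PSPH moved to 0.13.

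**Figure D3:**
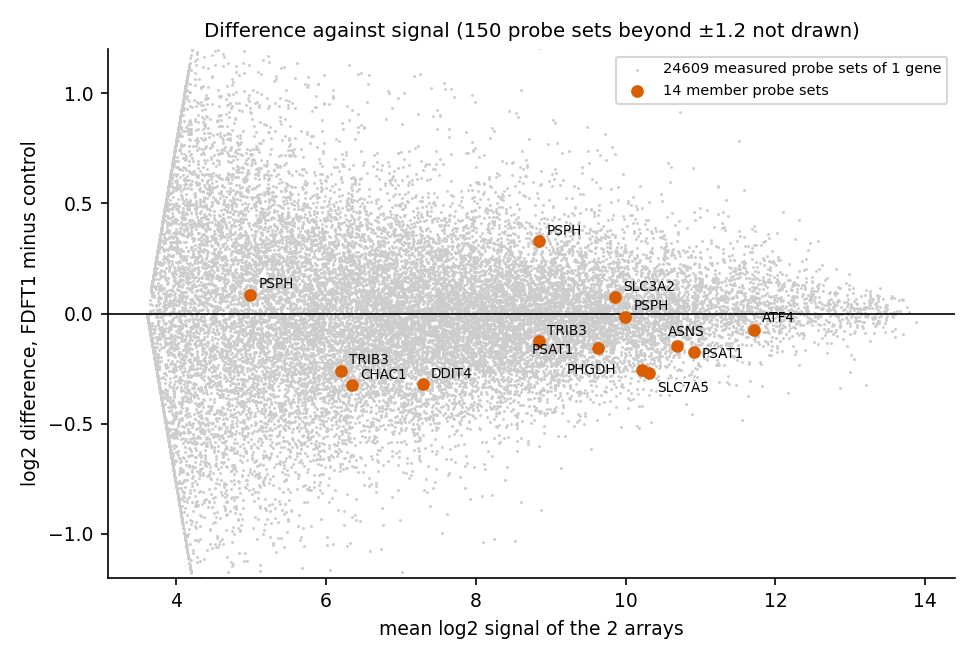
Centred log2 difference, FDFT1 minus control, against the mean log2 signal of the 2 arrays for 24609 measured probe sets (grey) and the 14 of the members (orange, labelled by gene). The spread narrows with signal, and the member points lie inside the grey cloud, with PHGDH and SLC7A5 towards its lower edge at their signal.

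Within probe sets of like signal, SLC7A5 and PHGDH stood furthest down. Of the 3668 measured probe sets with a mean log2 signal from 9 to 11, 5.18% lay lower than SLC7A5 and 6.24% lower than PHGDH. For DDIT4, in the range from 7 to 9, 9.55% of 6144 probe sets lay lower. For CHAC1, from 5 to 7, 17.0% of 6695 did, so its like-sized difference was less unusual among dim probe sets. For PSPH 205194_at 91.8% of the probe sets in its range lay lower.

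The rest of the pathway, taken from lists written with earlier results known, had genes on both sides of 0. Because the members were selected on these same differences, their direction cannot be compared with that of the other genes. Over the 67 measured genes of 7 lists that were not members, 38 were below 0, against 50.8% of all genes. The other 29 were above, and the median was -0.04. At least 1.2-fold lower were 13 and at least 1.2-fold higher 10, against the 15.7% and 16.4% of all genes given above. Among the 50 of these genes with a signal of at least 99.4, 31 were below 0, against 51.6% of all genes as bright, and the median was -0.07. In each list the genes with the lowest and the highest difference are named.

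The list of eIF2alpha, its kinases, their regulators and the subunits of its phosphatases, upstream of ATF4, was at a median of 0.02, with 3 of 9 below 0; without centring the median was -0.09. PPP1R15A, a stress-induced subunit of the phosphatase that reverses the signal, was the lowest, at -0.30 with an error of 0.31 (110 and 83.0). Its other probe set lay at -0.13. EIF2AK4, the GCN2 kinase that senses uncharged tRNA, was the highest, at 0.52 with an error of 0.22 (420 and 558); its other, dim probe set lay at -0.18. Partners and regulators of ATF4 were at a median of -0.07, with 7 of 9 below 0. JDP2, a basic leucine zipper repressor, was at -0.29 with an error of 0.31 (126 and 95.7). A dim second JDP2 probe set, whose control signal lay under the floor, was higher (8.65 and 16.4). EGLN3, a prolyl hydroxylase, was at 0.50 with an error of 0.51 and a control signal of 10.6 that lay under the floor.

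Other targets commonly listed for ATF4 were at a median of -0.08, with 11 of 18 measured below 0. SLC1A5, a carrier that brings in glutamine, was the lowest, at -0.31 (355 and 265). STC2, a secreted stanniocalcin, was the highest, at 0.31 with an error of 0.31 on its brighter probe set and at -0.97 on the other. Enzymes and carriers that use serine or move folate-bound carbon units were at a median of -0.08, with 8 of 14 measured below 0 and 6 above; the median turned to 0.03 with the floor at 99.4 and to 0.0026 with probe sets averaged. ALDH1L2, a mitochondrial folate enzyme, was at -0.69 with an error of 0.51 (26.8 and 15.4), and GCAT, which acts in threonine breakdown to glycine, at 0.68 with an error of 0.22 (140 and 209), its other probe set at 0.14.

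SLC3A1 and the light chains of SLC3A2 and SLC3A1, a list that includes SLC7A5 but not SLC3A2, had 4 of 6 measured genes below 0 and a median of -0.20, or -0.14 without SLC7A5 and -0.06 with no floor. SLC3A1, the other heavy chain, was at -0.51 and SLC7A9, its light chain, at 0.26, each with an error of 0.51 and 1 signal under the floor. Genes of glutathione synthesis and breakdown, CHAC1 included, had 4 of 8 below 0 and a median of 0.02, or -0.09 without centring. Without CHAC1, 3 of 7 were below 0 and the median was 0.05. OPLAH, which opens the 5-oxoproline that CHAC1 releases, was at -0.40 (251 and 177), and GGT1, a gamma-glutamyl transferase, was at least 2.39-fold higher after centring against a control signal under the floor (10.5 and 27.0). In the mTORC1 arm around DDIT4, DDIT4 included, 5 of 9 were below 0 and the median was -0.08. Without DDIT4, 4 of 8 were below 0 and the median was -0.03. RPTOR, the scaffold of mTORC1, was at -0.47 (116 and 77.9) and SESN1, a sestrin, at 0.30 (55.2 and 63.3), each with an error of 0.31.

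**Figure D4:**
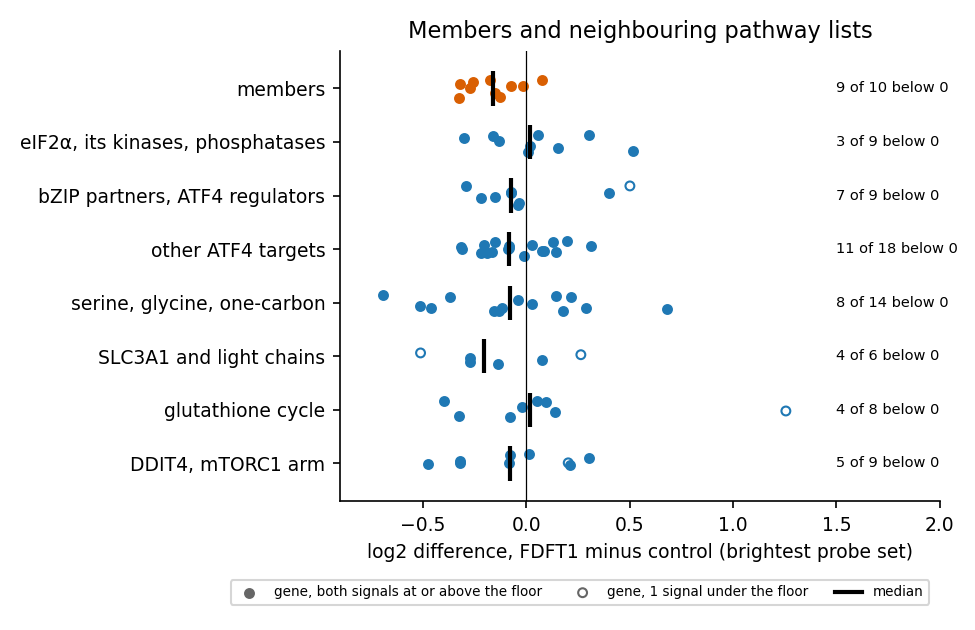
Centred log2 difference, FDFT1 minus control, of each measured gene in the member list (orange) and 7 neighbouring lists (blue), with the list median as a black bar; open circles have 1 signal under the floor, and vertical jitter has no meaning. The members span -0.33 to 0.08 on the brightest probe set of each gene, which leaves out PSPH 205194_at at 0.33. The other lists reach from -0.69 to 1.26, and dim genes set both of these ends. The 50 non-members with a signal of at least 99.4 span -0.47 to 0.68. Counts below 0 stand at the right.

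The sign of 12 of the 14 member probe sets was the same under each processing that gave them a value. Under 6 ways of processing (no centring, quantile, loess, no floor, a higher floor, and an offset added to each signal), CHAC1 ranged from -0.43 to -0.27, DDIT4 from -0.43 to -0.30, SLC7A5 from -0.38 to -0.27, PHGDH from -0.36 to -0.25 and ATF4 from -0.18 to -0.07. SLC3A2 and the dim PSPH probe set, which lay above 0 by less than the removed shift, turned to the lower side without centring.

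**Figure D5:**
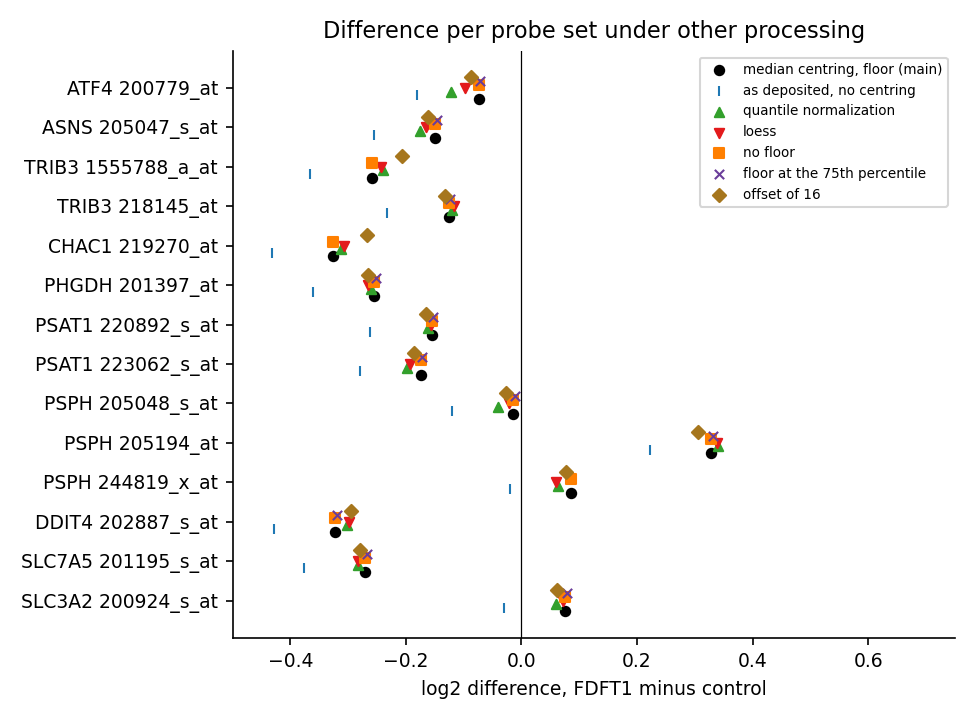
Log2 difference, FDFT1 minus control, of each member probe set under the main processing (black) and 6 alternatives (coloured marks, offset vertically for view). The values without centring (blue ticks) lie lowest for every probe set, and under the other settings each probe set keeps its side of 0; CHAC1, the dimmer TRIB3 and PSPH 244819_x_at have no value with the floor at 99.4.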

How the data were processed

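The authors deposited 1 intensity per probe set and array, the MAS5 signal on a linear scale; per the submitters' processing notes the tool was MAS5. Its version and scaling target and any detection calls are not stated in the labels. Of 54675 probe sets, 62 controls were left out. The platform annotation listed 1 gene for 41091 of the rest, several for 1801 and none for 11721; 41037 of the first were matched by Entrez identifier to RefSeq genes of GRCh38.p14, with 0 symbols changed. Log2 signals were centred on the median difference of probe sets at or above the floor on both arrays. The floor, 12.2, is the midpoint of the sorted signals, not a detection limit; lower values were set to it. A probe set was measured if 1 array reached the floor, and the brightest measured probe set stood for a gene. For the error, the differences of a gene's 2 brightest probe sets were subtracted where both lay in 1 range of mean log2 signal, and the SD was divided by the square root of 2. It was 0.51 below a mean of 5, 0.31 up to 7, 0.22 up to 9, 0.16 up to 11 and 0.10 for brighter probe sets. MAS5 by design subtracts mismatch probes and scales whole arrays, and the error here was largest for dim probe sets.

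With 1 array per culture, no test was made, and the number of arrays limits the precision. The members and gene lists were chosen with earlier results of these data known. Named genes were all members, and of each other list the genes with the lowest and highest difference; any others are marked as named after their values were seen. Python 3.11.15, numpy 2.4.6, pandas 2.3.3 and statsmodels 0.14.6 were used, and the scaling and the error were tested on simulated data. Alternatives changed the scaling, the floor, an offset of 16, the probe sets used and the size of 1.2-fold. List genes with no value under their own name were not analysed here; SHMT1, SLC7A7, SLC7A10 and DDIT4L were not measured.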

Additional observations from a re-analysis of the deposited data

How the results depend on the processing

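No paired analysis was possible because each group has 1 array. Without centring, 6 member probe sets and 5 member genes were at least 1.2-fold lower in place of 3 and 3, ATF4 was at -0.18, and 6 of the 9 genes of the eIF2alpha list were below 0 in place of 3; the removed shift accounts for these by construction. With 1.5-fold as the size, 0 member probe sets and 0 member genes were lower, against 4.53% of all probe sets and 3.44% of all genes. Leaving out probe sets with identifiers ending in _x_at or _s_at left 6 member probe sets of 5 genes; 5 probe sets and 4 genes were below 0, 1 probe set and 1 gene at least 1.2-fold lower, and the median over genes was -0.13. Under that setting 4 partners and regulators of ATF4, 6 of its other targets, 0 of the SLC3A1 and light chain list (median 0.077) and 2 of the mTORC1 arm (median 0.20) were below 0, on fewer genes. With the floor at 99.4, 11 member probe sets of 9 genes were measured, and 4 serine and folate genes and 2 of the SLC3A1 and light chain list were below 0. Most list medians lay near 0. Without centring the eIF2alpha list turned to -0.09 and the glutathione list to -0.09, the latter also to -0.0074 with quantile. The serine and folate list turned to 0.03 with the higher floor and 0.0026 with probe sets averaged. Leaving out _x_at and _s_at probe sets turned the SLC3A1 and light chain list from -0.20 to 0.077 and the mTORC1 arm from -0.08 to 0.20. The SLC3A1 and light chain median was -0.06 with no floor and -0.08 with probe sets averaged. The median over member genes lay between -0.27 and -0.13 under every alternative run. Dim probe sets such as CHAC1 are limited by their error.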
